A study of Mus musculus with 6 samples.

Results

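The Hox genes of the mouse colon were examined as the 36 rows of the deposited expression table whose gene name is Hoxa, Hoxb, Hoxc or Hoxd followed by a paralogue number, out of 30777 rows in all. RefSeq lists 39 such genes, and the other 3 (Hoxb1, Hoxc12 and Hoxc13) were not analysed here. RNA was sequenced from whole colon of BALB/c mice, an inbred laboratory strain, in 6 libraries. Of these, 3 were from animals treated with 5-fluorouracil (5-Fu), a chemotherapy drug that blocks DNA synthesis in dividing cells, and 3 from animals treated with 5-fluorouracil and berberine, a plant alkaloid (5-Fu+BBR). Every library thus came from a 5-fluorouracil-treated colon, and no untreated colon was part of the comparison. The labels give no dose, time, age or position along the colon, and do not state that the samples of a group were different animals. The p-values below measure only the spread among the samples.

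Hox genes encode homeodomain transcription factors that give cells along the head-to-tail axis of the embryo their position. They lie in 4 clusters, and within a cluster the order of the genes follows the order in which they are used: low paralogue numbers act towards the head and high numbers towards the tail. Much of this positional pattern is kept in the adult, and in the gut the high-numbered paralogues are known from the hindgut, which forms the colon. Here the paralogues were grouped as anterior (1 to 3), central (4 to 8) and posterior (9 to 13). The HoxA cluster lies on chromosome 6, HoxB on 11, HoxC on 15 and HoxD on 2 of GRCm38.

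The sequences upstream of 5 posterior genes are given because these genes carry the main results: Hoxd13, Hoxd12 and Hoxd10 varied together between libraries, whereas Hoxa13 and Hoxa10 were steady within a group. Each is the 250 bases before the start site that RefSeq gives on GRCm38.p6, written 5′ to 3′ on the strand of the gene, with matches to TATAAA on either strand in capitals.
Hoxd13 (chr2:74667975-74668224, plus strand): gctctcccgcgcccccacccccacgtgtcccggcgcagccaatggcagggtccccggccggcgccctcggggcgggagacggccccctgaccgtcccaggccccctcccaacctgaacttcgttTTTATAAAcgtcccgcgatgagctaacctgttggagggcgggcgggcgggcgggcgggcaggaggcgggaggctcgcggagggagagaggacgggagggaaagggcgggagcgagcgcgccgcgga
Hoxd12 (chr2:74674763-74675012, plus strand): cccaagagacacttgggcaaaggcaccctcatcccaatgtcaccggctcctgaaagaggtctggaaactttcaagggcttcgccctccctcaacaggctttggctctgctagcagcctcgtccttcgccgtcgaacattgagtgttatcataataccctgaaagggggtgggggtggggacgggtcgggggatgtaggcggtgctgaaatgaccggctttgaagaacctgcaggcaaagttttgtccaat
Hoxd10 (chr2:74691641-74691890, plus strand): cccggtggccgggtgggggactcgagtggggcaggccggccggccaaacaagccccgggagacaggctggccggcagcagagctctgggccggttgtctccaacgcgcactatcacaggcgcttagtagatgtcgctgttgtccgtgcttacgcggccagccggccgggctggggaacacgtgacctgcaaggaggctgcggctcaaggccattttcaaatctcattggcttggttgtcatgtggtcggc
Hoxa13 (chr6:52260881-52261130, minus strand): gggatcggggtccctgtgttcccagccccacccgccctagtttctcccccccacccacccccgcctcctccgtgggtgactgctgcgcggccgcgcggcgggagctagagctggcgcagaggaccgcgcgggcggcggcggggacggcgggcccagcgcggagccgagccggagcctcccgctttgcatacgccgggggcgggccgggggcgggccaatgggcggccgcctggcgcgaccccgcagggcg
Hoxa10 (chr6:52240855-52241104, minus strand): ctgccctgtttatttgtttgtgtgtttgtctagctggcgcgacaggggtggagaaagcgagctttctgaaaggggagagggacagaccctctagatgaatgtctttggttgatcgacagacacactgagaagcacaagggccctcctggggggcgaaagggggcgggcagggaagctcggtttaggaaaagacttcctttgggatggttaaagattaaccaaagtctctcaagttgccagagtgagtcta
Hoxd13 held 2 matches to TATAAA, 1 on each strand and overlapping, and the other 4 sequences held none. The sequence of Hoxa13 was 80.0% G and C with 35 CG dinucleotides, and that of Hoxd13 was 74.4% with 31. Those of Hoxd10, Hoxd12 and Hoxa10 were 65.6%, 55.6% and 51.6%, with 20, 10 and 7 CG dinucleotides. RefSeq promoters were found for 21 of the 36 genes (23 entries), with a median of 58.0% G and C and 13 CG dinucleotides, against 52.4% and 6 over 32851 mouse promoters. TATAAA on either strand was present in 4 of the 23 (Hoxa10, in a second entry further downstream, Hoxb8, Hoxd4 and Hoxd13), against 12.4% of all promoters. TTTATG, the AT-rich core bound by caudal-type and posterior Hox proteins, was present in 5 of 23, against 10.8% of all. TGACAG, the core bound by the cofactors of the Meis family, was present in 2 of 23, against 15.9% of all. Such matches describe the letters only.

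The colon expressed mainly the posterior end of the Hox series. Levels are given as the deposited FPKM, in which fragments are divided by the length of the transcript and the size of the library, so that genes can be compared with each other. Of the 36 genes, 17 had a mean FPKM of at least 1 over the 6 libraries, 27 of at least 0.1, and 9 were below 0.1. Summed over all 36 genes the level was between 257 and 325 FPKM per library. Posterior genes made up 90.1 to 93.7% of that sum, central genes 5.06 to 8.11% and anterior genes 1.24 to 1.77%. The 3 genes of paralogue 13 alone made up 71.9 to 79.9%. The next sums were those of paralogue 9, with a mean of 23.7 FPKM over the libraries, and paralogue 10, with 15.8.

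**Figure D1:**
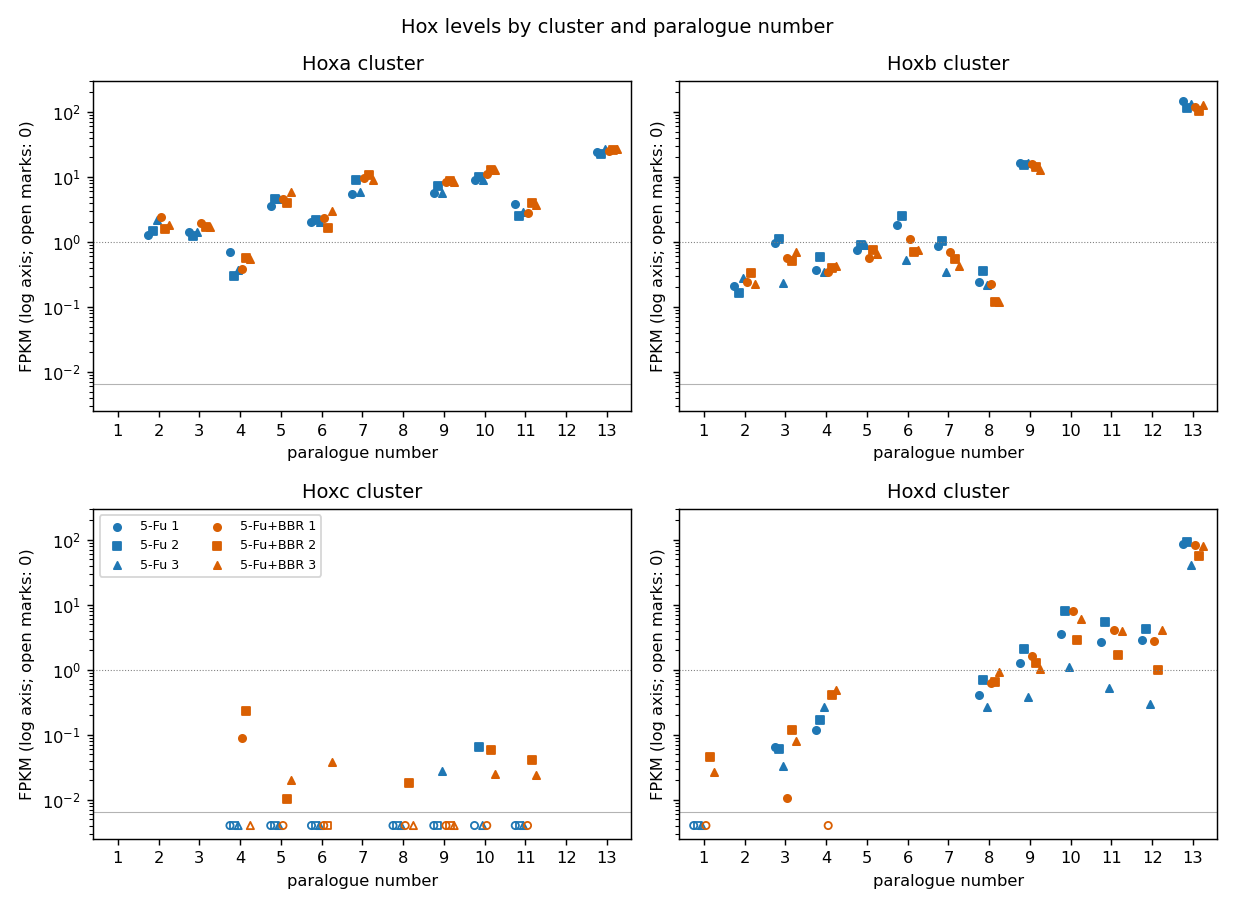
FPKM (log axis) of 35 of the 36 Hox genes against its paralogue number, 1 panel per cluster, with 1 point per library; blue is 5-Fu, orange is 5-Fu+BBR, the shape marks the replicate, and open marks below the line are values of 0. Paralogue 13 was the highest gene of HoxA, HoxB and HoxD, up to 149 FPKM for Hoxb13, and every HoxC value was below 1 (dotted line).

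Hoxb13, the most posterior gene of its cluster (chromosome 11, 96194316 to 96197447), was the highest Hox gene in each of the 6 libraries. Its level was 149, 114 and 134 FPKM in 5-Fu libraries 1 to 3 and 119, 103 and 129.9 FPKM in 5-Fu+BBR libraries 1 to 3. It stood between the 309th and the 453rd place among all genes of the table. The ranges of the groups overlapped.

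Hoxd13, a gene required for the hindgut outlet and the digits (chromosome 2, 74668310 to 74671599), was second in every library. It was at 86.2, 92.8 and 40.8 FPKM in 5-Fu and 82.0, 56.4 and 78.9 FPKM in 5-Fu+BBR. The lowest value belonged to 5-Fu library 3 and the next lowest to 5-Fu+BBR library 2. Hoxa13, which acts in the hindgut and the genital tract (chromosome 6, 52257694 to 52260880), came next in every library. It was at 24.6, 22.9 and 27.0 FPKM in 5-Fu and 24.8, 25.8 and 27.4 FPKM in 5-Fu+BBR, and its highest CPM was only 1.35 times its lowest. The ranges of Hoxb13, Hoxd13 and Hoxa13 did not overlap with each other over the 6 libraries.

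Places 4 and 5 went to Hoxb9 and Hoxa10, with Hoxa10 ahead in 5-Fu+BBR library 3 only. Hoxb9 (chromosome 11, 96271457 to 96276595) was at 16.2, 15.3 and 16.5 FPKM in 5-Fu and 15.8, 14.4 and 12.7 FPKM in 5-Fu+BBR. Hoxa10 (chromosome 6, 52231197 to 52240795) was at 8.96, 9.9998 and 8.91 FPKM in 5-Fu and 11.05, 13.03 and 12.7 FPKM in 5-Fu+BBR. Below these, Hoxa7 and Hoxa9 held places 6 to 8 and could not be ordered, since their ranges overlapped with each other and with that of Hoxd10. In FPKM, Hoxa7 was at 5.55, 9.12 and 5.80 in 5-Fu and 9.65, 10.8 and 8.999 in 5-Fu+BBR, and Hoxa9 at 5.59, 7.28 and 5.70 against 8.37, 8.54 and 8.25.

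The HoxA cluster was expressed along most of its length. Of its 11 genes, 9 had a mean of at least 1 FPKM, and Hoxa4 (0.478) was among those below. Hoxa2, Hoxa5, Hoxa6 and Hoxa11 had means of 1.79, 4.54, 2.22 and 3.28 FPKM. The HoxB cluster held its level in 2 posterior genes. Its 7 genes from Hoxb2 to Hoxb8 together summed to between 2.85 and 6.64 FPKM per library, against 117 to 165 for Hoxb9 and Hoxb13. The highest of the 7 was Hoxb6, at 1.83, 2.51 and 0.521 FPKM in 5-Fu and 1.09, 0.706 and 0.761 FPKM in 5-Fu+BBR. The means of the other 6 (Hoxb2, Hoxb3, Hoxb4, Hoxb5, Hoxb7 and Hoxb8) ranged from 0.213 to 0.760 FPKM. Of the exon bases of Hoxb3 and Hoxb2, 52.9% and 27.3% lie opposite the antisense gene Hoxb3os. The sources used here do not state if the counting used strand, so all values of these 2 genes are uncertain.

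In HoxD the level went up along the cluster, from 0.0119 FPKM for Hoxd1 and 0.0610 for Hoxd3 through 0.242 for Hoxd4, 0.595 for Hoxd8 and 1.28 for Hoxd9 (means of 6 libraries). Hoxd10, Hoxd11 and Hoxd12 were at means of 4.97, 3.05 and 2.53 FPKM, and Hoxd13 at 72.9. Hoxd1 had 0 counts in 4 libraries and 6 and 4 in 5-Fu+BBR libraries 2 and 3. Hoxd3 and Hoxd4 share exons with each other and with the predicted gene Gm28230, which overlaps 55.4% and 39.1% of their exon bases on the same strand in GENCODE M21, so their separate values are uncertain.

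HoxC was close to silent in these libraries. Its 7 genes had 109 deposited counts in all over the 6 libraries, and their summed level was at most 0.359 FPKM. Hoxc4 was at 0 counts throughout 5-Fu and at 17, 38 and 0 counts in 5-Fu+BBR. Hoxc10 had 0, 10 and 0 counts in 5-Fu and 0, 8 and 4 in 5-Fu+BBR, and Hoxc11 had counts only in 5-Fu+BBR libraries 2 and 3 (6 and 4). Hoxc5, Hoxc6, Hoxc8 and Hoxc9 had at most 7 counts in any library. A single sequenced fragment can be worth about 4 deposited counts, so most of these values stand for a few fragments, and levels this low could not be compared between groups. None of the 7 was high enough to be tested.

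Expression was next compared between 5-Fu+BBR and 5-Fu, the comparison made to find genes associated with berberine. Of the 36 genes, 28 were high enough to be tested: 11 in HoxA, 9 in HoxB and 8 in HoxD. In edgeR's quasi-likelihood test over 20101 genes, 0 of the 28 passed an adjusted p of 0.05, where 0.0746% of all genes tested passed. At an unadjusted p under 0.05, 3 of the 28 differed, against 15.6% of all genes. The 3 (Hoxa7, Hoxa9 and Hoxa10) were higher in 5-Fu+BBR, where 9.48% of all genes were, and 0 were lower, where 6.08% of all genes were. Each of these shares among the Hox genes was near or below that of all genes.

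Hoxa9 (chromosome 6, 52223100 to 52231089), a posterior gene also known from blood stem cells, was at 36.8, 45.4 and 40.8 CPM in 5-Fu and 57.5, 55.1 and 54.1 CPM in 5-Fu+BBR (CPM are counts scaled to a common library size). The groups did not overlap. The level was 1.36-fold higher, with a log2 fold change of 0.44 ± 0.11 (SE), and did not pass adjustment (edgeR, unadjusted p = 0.0037, adjusted p = 0.150). Hoxa10, known for its part in the reproductive tract, was at 34.6, 36.5 and 37.3 CPM in 5-Fu and 44.5, 49.2 and 48.9 CPM in 5-Fu+BBR. All 3 libraries of 5-Fu+BBR lay above those of 5-Fu, 1.32-fold on the fitted scale, and the difference did not pass adjustment (edgeR, log2 fold change 0.40 ± 0.10, adjusted p = 0.151).

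Hoxa7 (chromosome 6, 52214491 to 52221854), a central gene, was at 18.8, 29.3 and 21.4 CPM in 5-Fu and 34.2, 36.0 and 30.4 CPM in 5-Fu+BBR. The groups were apart in CPM but not in FPKM, where 5-Fu library 2 (9.12) was above 5-Fu+BBR library 3 (8.999). The log2 fold change was 0.53 ± 0.18 (edgeR, adjusted p = 0.225). About 20.4% of the exon bases of Hoxa7 lie opposite the antisense gene Hoxaas3, and the sources used here do not state if the counting used strand, so this value is uncertain. Hoxa3 (chromosome 6, 52169062 to 52213336), an anterior gene needed for the pharyngeal organs, was at 10.3, 8.47 and 11.1 CPM in 5-Fu and 14.4, 11.8 and 11.98 CPM in 5-Fu+BBR. Its groups did not overlap, with a gap smaller than the range within 5-Fu+BBR (edgeR, log2 fold change 0.36 ± 0.18, adjusted p = 0.376). In FPKM, Hoxa3 was at 1.45, 1.26 and 1.43 in 5-Fu and 1.94, 1.70 and 1.69 in 5-Fu+BBR. Hoxa3 too has antisense genes opposite several of its exons.

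**Figure D2:**
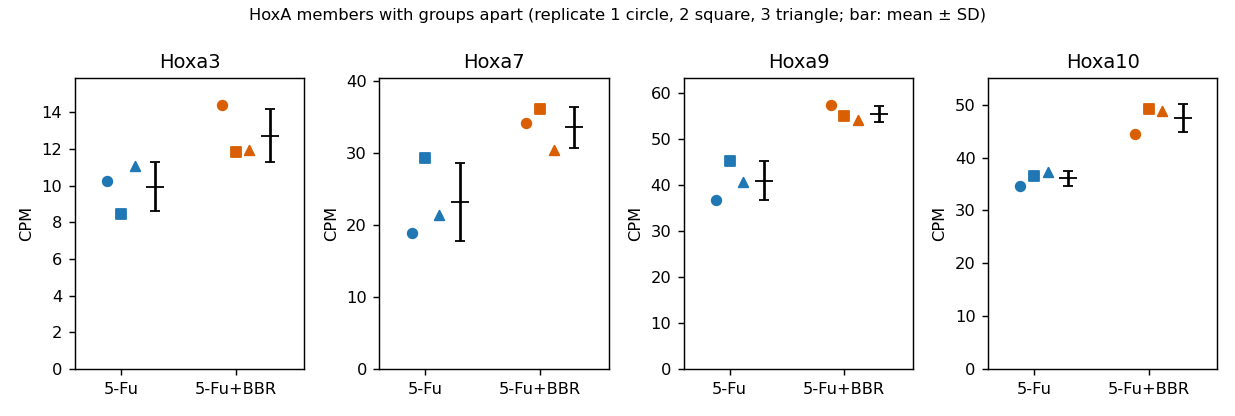
CPM of Hoxa3, Hoxa7, Hoxa9 and Hoxa10 in the 5-Fu (blue) and 5-Fu+BBR (orange) libraries, with the mean ± SD of 3 libraries beside each group. In each panel all 3 orange points lie above the blue ones, with the widest gap relative to the spread in Hoxa10 (37.3 against 44.5 CPM); none passed adjustment.

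These 4 were the Hox genes whose libraries were all higher in 5-Fu+BBR, where 12.3% of all genes tested had groups apart in that direction. Hoxb5 and Hoxb8 were the 2 whose libraries were all lower, where 9.68% of all genes were. Hoxb5 was at 2.504, 2.83 and 3.27 CPM in 5-Fu and 1.98, 2.42 and 2.18 CPM in 5-Fu+BBR. Hoxb8 was at 0.775, 1.07 and 0.749 against 0.744, 0.380 and 0.379 CPM, and its groups overlapped in FPKM. Both were chosen after their values were seen, and neither passed (edgeR, adjusted p = 0.526 and 0.452).

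By cluster, the fitted fold changes differed in sign. In HoxA, 11 of 11 were positive, with a median log2 fold change of 0.21 and a range from 0.05 to 0.53, although several, Hoxa2, Hoxa4, Hoxa6, Hoxa11 and Hoxa13 among them, each turned negative with 1 or 2 libraries left out. In HoxB, 1 of 9 was positive, with a median of -0.35, and the values for Hoxb9 and Hoxb13 were -0.17 ± 0.13 and -0.18 ± 0.17. In HoxD, 8 of 8 were positive with a median of 0.28, although 3 of the signs depended on the method. Hoxd13, at 0.01 ± 0.29, was slightly below 0 without the filter, with DESeq2's size factors in edgeR and with DESeq2. Hoxd4, at 0.61 ± 1.21, was at -0.15 with a replicate block and -1.30 with limma-voom, and Hoxd3, at 0.34 ± 0.77, was at -0.12 with limma-voom. With 5-Fu+BBR library 1 alone in its group, where Hoxd4 had 0 counts and Hoxd3 had 4, both were negative. Over all genes tested the median was 0.01 and 50.7% were positive. The genes of a cluster were measured in the same libraries and are not independent of each other, and these counts were not tested. In summed FPKM, HoxA was at 57.7, 61.9 and 61.2 in 5-Fu and 68.6, 71.9 and 74.1 in 5-Fu+BBR, so its groups were apart. The sums of HoxB (120.5 to 170.3 FPKM) and HoxD (43.7 to 113.5 FPKM) overlapped between groups.

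**Figure D3:**
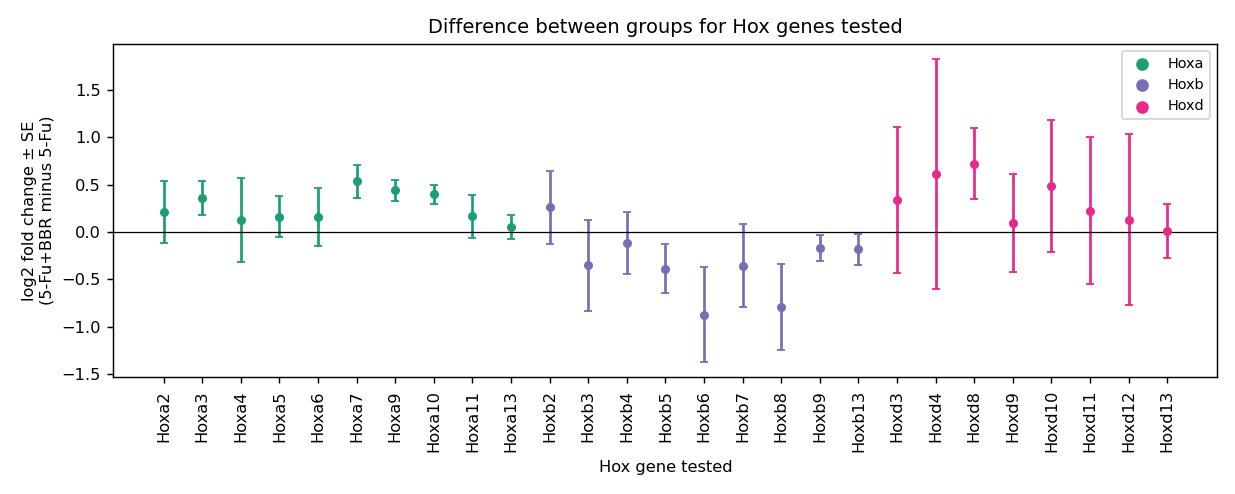
Log2 fold change ± SE (5-Fu+BBR minus 5-Fu) of 27 of the 28 Hox genes tested, in cluster and paralogue order, coloured by cluster. The narrowest bars are in posterior HoxA (Hoxa10, 0.40 ± 0.10) and the widest in HoxD (Hoxd4, 0.61 ± 1.21).

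The sign of the smaller values depended on single libraries. Without 5-Fu library 3, the log2 fold changes of Hoxd9, Hoxd11, Hoxd12 and Hoxd13 became -0.31, -0.25, -0.38 and -0.24, and 7 of 29 Hox genes tested reached an unadjusted p under 0.05 in edgeR's test, as did 17.9% of all genes in that fit. These were Hoxb6 (log2 fold change -1.26) and Hoxb3 (-0.75), both lower in 5-Fu+BBR, and Hoxa3, Hoxa7, Hoxa9, Hoxa10 and Hoxc4. Without 5-Fu library 2, 5 of 29 did so, with Hoxd8 and Hoxc4 beside the 3 of HoxA, as did 15.6% of all genes. Without 5-Fu+BBR library 1, 5 of 28 did so, with Hoxb8 (-1.18) and Hoxd4 (1.19) beside those 3, as did 13.9% of all genes. Without 5-Fu+BBR library 2, Hoxa9 and Hoxa10 were the only 2 of 28, against 9.12% of all genes. Hoxa9 and Hoxa10 kept an unadjusted p under 0.05 with any 1 library left out, with log2 fold changes of 0.36 to 0.52 and 0.36 to 0.44. Hoxa7 narrowly missed it without 5-Fu library 1 (edgeR, unadjusted p = 0.0536, adjusted p = 0.511). It also missed it without 5-Fu+BBR library 2 (edgeR, adjusted p = 0.554).

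Several posterior HoxD genes differed widely between the libraries of a group. Hoxd10 was at 3.57, 8.05 and 1.11 FPKM in 5-Fu and 8.08, 2.91 and 6.13 FPKM in 5-Fu+BBR. Hoxd11 was at 2.70, 5.39 and 0.530 FPKM in 5-Fu and 4.08, 1.67 and 3.94 FPKM in 5-Fu+BBR. Hoxd12 was at 2.88, 4.20 and 0.298 FPKM in 5-Fu and 2.77, 0.997 and 4.02 FPKM in 5-Fu+BBR. All 3 were lowest in 5-Fu library 3 and lowest within 5-Fu+BBR in library 2, and the groups overlapped widely. Hoxd12, like the other genes named for this pattern, was singled out after its values were seen.

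In CPM, the mean of 5-Fu libraries 1 and 2 exceeded that of 5-Fu library 3 by 10.4 times for Hoxd12, 6.74 times for Hoxd11, 4.64 times for Hoxd10, 3.96 times for Hoxd9 and 1.96 times for Hoxd13. 5-Fu library 3 was the lowest of the 6 for 6 of 6 genes from Hoxd8 to Hoxd13. It was also the lowest for 3 of 7 genes from Hoxb2 to Hoxb8 (Hoxb3, Hoxb6 and Hoxb7). It was the lowest for 0 of 11 HoxA genes, and for 19.4% of all genes tested. Hoxb3, whose values are uncertain because of the antisense gene opposite it, and Hoxb6 were lower there by 3.88 and 3.69 times. The share of the summed Hox level that came from HoxD ranged accordingly from 16.9 to 36.5% between libraries.

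The fitted biological coefficient of variation is the spread between replicates beyond the counting error of the deposited counts. Since 1 fragment can be worth about 4 counts, part of the counting error can remain in it, most of all in genes with few counts. The coefficient had a median of 0.593 over the 8 HoxD genes, 0.350 over the 9 HoxB genes and 0.225 over the 11 HoxA genes, against 0.242 over all genes tested. In HoxD it was highest for the low Hoxd4 (1.07), followed by Hoxd12 (0.737), Hoxd11 (0.635), Hoxd3 (0.606) and Hoxd10 (0.579), and it was 0.258 for Hoxd13. The highest CPM exceeded the lowest by 12.2 times for Hoxd12 and 1.42 times for Hoxa10. The standard errors of the log2 fold changes of Hoxd9 to Hoxd12 were 0.52 to 0.90, so a difference of the size fitted for Hoxa10 was not detectable in these 4 genes.

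**Figure D4:**
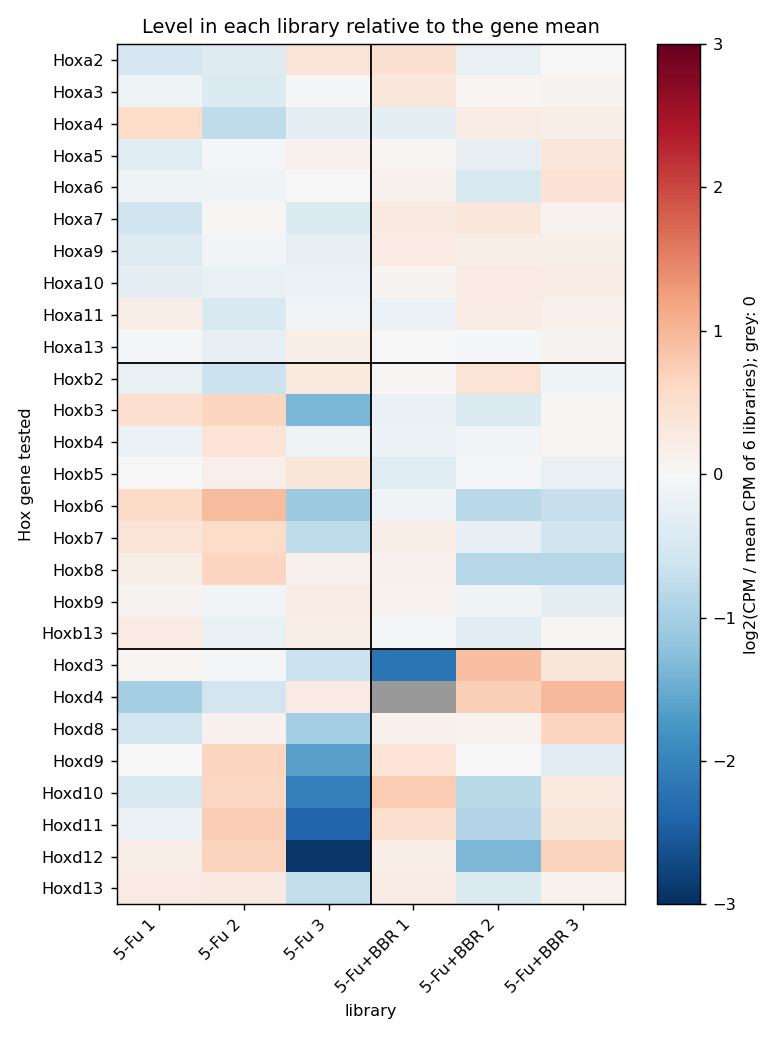
Colour map of log2(CPM over the mean of the 6 libraries) for 27 of the 28 Hox genes tested (rows, by cluster) in each library (columns); red is above the mean of that gene, blue below, and grey a value of 0. The dark blue block in 5-Fu library 3 covers Hoxd9 to Hoxd12, while no HoxA gene is lowest there.

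Colon tissue holds epithelium, muscle and connective tissue, and in such bulk samples fewer cells of a type and less RNA per cell cannot be told apart. Marker lists were therefore summed beside the Hox values. The 10 fibroblast markers summed to 160, 306 and 80.4 FPKM in 5-Fu and 279, 249.96 and 222 FPKM in 5-Fu+BBR. The 8 endothelial markers summed to 10.5, 18.0 and 8.18 FPKM in 5-Fu and 15.0, 13.4 and 13.04 FPKM in 5-Fu+BBR. Both were lowest in 5-Fu library 3 and highest in 5-Fu library 2. Hoxd9 to Hoxd12 together were at 10.4, 19.7 and 2.31 FPKM in 5-Fu and 16.5, 6.86 and 15.1 FPKM in 5-Fu+BBR. The low 5-Fu library was thus shared with the fibroblast and endothelial lists and the low 5-Fu+BBR library was not. The smooth muscle (1014 FPKM), adipocyte (7.40) and skeletal muscle (5.25) sums were also lowest in 5-Fu library 3, and those of the other lists were lowest elsewhere. Within 5-Fu+BBR, library 2 was lowest for the skeletal muscle (5.42 FPKM), epithelial (6938) and enteric glia (29.8) sums. It was also lowest there for interstitial cells of Cajal (43.7 FPKM) and for the urothelium and reproductive tract (2.82). Of these sums, only that of skeletal muscle was also lowest in 5-Fu library 3. The part of these cells in the HoxD values was not tested.

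The 12 smooth muscle markers summed to 1323, 1079 and 1014 FPKM in 5-Fu and 1729, 2130.4 and 1992 FPKM in 5-Fu+BBR. Their groups were apart in the same direction as those of summed HoxA. Of the 12, 10 were higher at an unadjusted p under 0.05 in edgeR's test, against 9.48% of all genes tested, although 0 passed adjustment. Adipocyte markers (7.40 to 15.7 against 42.5 to 82.2 FPKM) and lymphocyte markers (17.2 to 65.1 against 81.5 to 118.5 FPKM) were also apart. At an unadjusted p under 0.05 in edgeR's test, 8 of 8 adipocyte and 9 of 10 lymphocyte markers were higher and 0 were lower. Of these too, 0 passed adjustment. Epithelial markers overlapped between groups (7368 to 8244 against 6938 to 7842 FPKM). The sum of the 6 enteric glia markers was apart in the other direction (44.1 to 47.0 against 29.8 to 43.4 FPKM), but nearly all of it came from Erbb3 (42.4 to 45.5 against 27.3 to 41.6 FPKM), and the fold changes of the other 5 were positive. Those of enteric neurons (16.01 to 23.4 FPKM), interstitial cells of Cajal (41.5 to 53.6), skeletal muscle (5.25 to 9.92), mesothelium (2.04 to 5.57) and the urothelium and reproductive tract (2.19 to 3.76) overlapped. No list had a marker at 0 in all 6 libraries. The part of these cells in the HoxA values was not tested.

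The 15 kidney markers summed to 17.0 to 19.7 FPKM in 4 libraries and to 154 and 148 FPKM in 5-Fu+BBR libraries 2 and 3, mostly from Kap. Kidney tissue also expresses Hox genes. Hoxd4 was at 24, 39 and 52 counts in 5-Fu and 0, 78 and 94 counts in 5-Fu+BBR, so its 2 highest libraries were those 2. Hoxd3, at 18, 20 and 10 counts in 5-Fu and 4, 32 and 22 in 5-Fu+BBR, was also highest there. Hoxd1, Hoxc5, Hoxc6, Hoxc8 and Hoxc11 had their few counts in no other library, whereas Hoxc4, Hoxc9 and Hoxc10 had counts elsewhere. The part of kidney RNA in these values was not tested. With 5-Fu+BBR library 1 as the lone sample of its group, assumed to vary like the others, the log2 fold change was 0.48 for Hoxa9, 0.29 for Hoxa10, 0.55 for Hoxa7 and 0.52 for Hoxa3. The adjusted p values in that edgeR fit ranged from 0.807 to 0.862.

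**Figure D5:**
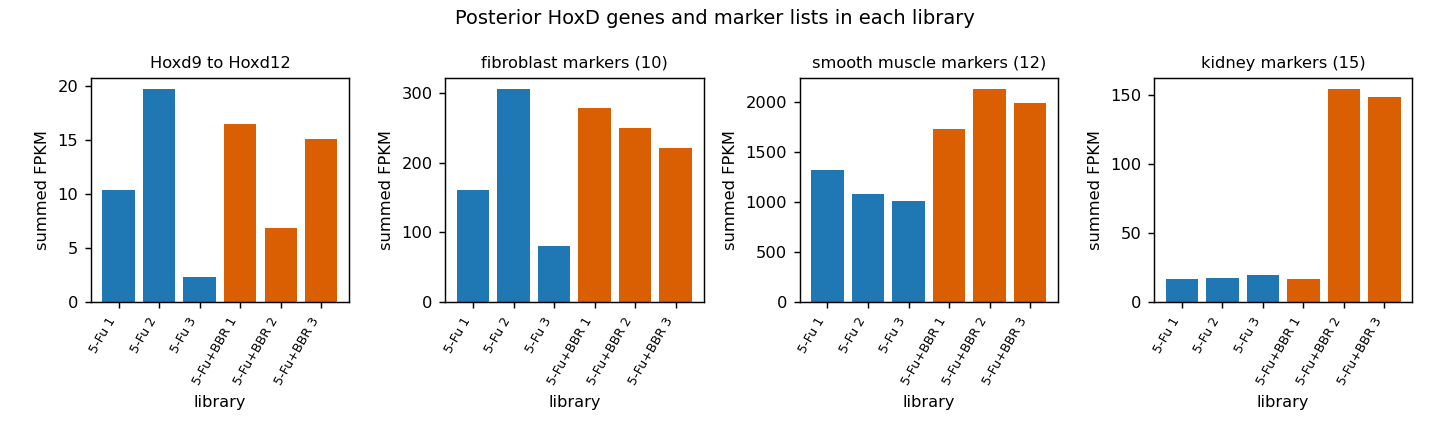
Summed FPKM in each library (blue 5-Fu, orange 5-Fu+BBR) of Hoxd9 to Hoxd12, the 10 fibroblast markers, the 12 smooth muscle markers and the 15 kidney markers, on separate axes that start at 0. The HoxD sum is lowest in 5-Fu library 3 (2.31), as are the fibroblast sum (80.4) and the smooth muscle sum (1014). The kidney sum is high only in 5-Fu+BBR libraries 2 and 3.

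Genes that act with the Hox proteins or upstream of them were counted from lists. Over all genes tested, 15.6% reached an unadjusted p under 0.05 in edgeR's test, with 9.48% higher in 5-Fu+BBR and 6.08% lower. Of 9 cofactors of the Pbx, Meis and Pknox families, which bind DNA together with Hox proteins, 9 were tested and 0 reached an unadjusted p under 0.05 in edgeR's test (median log2 fold change 0.09). Pbx2 was the highest (mean 11.3 FPKM). Of 24 regulators, among them the Cdx factors and the Polycomb and Trithorax proteins that silence and maintain Hox genes, 20 were tested and 1 was lower at that level (median -0.04). This was Bmi1, a Polycomb protein, with a log2 fold change of -0.54 ± 0.19 (edgeR, adjusted p = 0.239) and overlapping groups. Cdx1 and Cdx2, caudal-type factors of the gut epithelium, were the highest, at means of 133 and 27.0 FPKM. They also led the list of ParaHox and other homeobox genes, of which 8 of 13 were tested and 0 differed at that level (median 0.08).

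Among the noncoding RNAs of the clusters, 13 of 19 had rows and 8 were tested. Of these, 2 were higher at an unadjusted p under 0.05 in edgeR's test, against 9.48% of all genes tested. Both were from the posterior end of HoxA, and the median log2 fold change over the 8 was 0.35. Hottip, a noncoding RNA transcribed next to Hoxa13 (chromosome 6, 52262775 to 52267603), was at 1.73, 2.41 and 4.49 FPKM in 5-Fu and 5.75, 7.28 and 11.3 FPKM in 5-Fu+BBR. Its groups did not overlap, and its log2 fold change of 1.46 ± 0.43 did not pass adjustment (edgeR, adjusted p = 0.208). Hoxa13 itself had a log2 fold change of 0.05 ± 0.13. Hoxa11os, the antisense gene of Hoxa11 (chromosome 6, 52244393 to 52249799), was at 29.8, 26.7 and 34.4 FPKM in 5-Fu and 34.0, 41.0 and 51.7 FPKM in 5-Fu+BBR, with overlapping groups (edgeR, log2 fold change 0.46 ± 0.19, adjusted p = 0.290). Its mean of 36.3 FPKM was above that of Hoxa11 (3.28 FPKM), and 35.0% of the exon bases of Hoxa11 lie opposite it, so reads of the 2 may not be separated. Mir196a-1, a microRNA gene of the HoxB cluster, had a mean of 19.6 FPKM, a value that rests on 98 to 181 counts because the annotated hairpin is short.

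The regional identity of the tissue was checked with other genes. Of 10 colon and hindgut genes, 9 were tested (median log2 fold change -0.09). Of the 9, 0 reached an unadjusted p under 0.05 in edgeR's test, against 15.6% of all genes tested. The highest were Aqp8, a water channel of the colon surface (mean 169.7 FPKM), and Car1, a carbonic anhydrase of the colon epithelium (125.8 FPKM), and both varied widely, from 24.1 to 384 and from 67.6 to 229 FPKM. Of 10 small intestine genes, 8 were tested (median -0.67) and 2 were lower at that level, against 6.08% of all genes tested. Slc10a2, the bile acid transporter of the ileum and caecum, was at 17.0, 9.52 and 8.05 FPKM in 5-Fu and 1.497, 0.677 and 3.92 FPKM in 5-Fu+BBR. Its groups did not overlap and the difference did not pass adjustment (edgeR, log2 fold change -2.502 ± 0.69, adjusted p = 0.201). Apoa4, an apolipoprotein of the small intestine, was low in both groups and its fold change rested on 5-Fu library 1 (1.77 FPKM, against 0.143 to 0.319 in the other 5). Lactase (Lct) and sucrase-isomaltase (Sis), defining enzymes of the small intestine, were at most 0.0264 and 0.0304 FPKM. These 2 were named outside the rule given below for the lists, and they do not stand for the whole list. Its 10 genes summed to 23.6, 14.3 and 13.8 FPKM in 5-Fu and 5.52, 7.15 and 9.43 FPKM in 5-Fu+BBR. Slc10a2 alone made up most of each 5-Fu sum (17.0, 9.52 and 8.05 FPKM). It made up a smaller part of each 5-Fu+BBR sum (1.497, 0.677 and 3.92 FPKM).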

How the data were processed

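Messenger RNA of whole colon was sequenced as strand-marked libraries with molecular identifiers, per the labels' protocols. The build is GRCm38 per the submitters' processing notes, which also list, without roles, StringTie 1.3.4d, HISAT2 2.0.4 and cutadapt 1.9 and, with no version, edgeR, DESeq2 and UMI-tools. The sources used here do not state if counting used strand or the identifiers. The authors deposited estimated counts, as whole numbers, and FPKM for each library. Low counts pile up at 4 (5414 values of 4 in the table, against 3539 of 3 and 1953 of 5), so 1 fragment can be worth about 4 counts. Counts summed to 53824752 to 63831168 per library, and each pair of libraries differed by more than sampling noise.

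The deposited counts were filtered with filterByExpr (20101 genes) and scaled with TMM. The groups were compared in R 4.3.3 by the robust quasi-likelihood F test of edgeR 4.0.16, without covariates, and p-values were adjusted by Benjamini and Hochberg's method across the 20101 genes. Levels between genes were compared in FPKM only. Alternatives used a replicate block, other filters and scalings, DESeq2 1.42.0, limma 3.58.1, and libraries left out. Steps were tested on simulated data. Exon overlaps come from GENCODE M21, whose coordinates matched those deposited for 34 of the 36 Hox genes. The Hox genes and the lists were chosen with earlier results of these data known. Values per library are given for the 3 highest genes of each cluster and for genes with an unadjusted p under 0.05 or, at a mean FPKM of at least 1, groups apart; of other lists, the 2 highest and those with an unadjusted p under 0.05 are named. A few single genes that this rule would name are not reported here.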

Additional observations from a re-analysis of the deposited data

How the results depend on the processing

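No Hox gene passed an adjusted p of 0.05 under any alternative run (0 throughout); the lowest adjusted p of a Hox gene was 0.150 in the edgeR test as reported and 0.0788 over the alternatives, for Hoxa9 with DESeq2. The number of Hox genes at an unadjusted p under 0.05 was 3 of 28 as reported (15.6% of all genes tested), 3 of 28 with a replicate block (15.9%), 4 of 36 with no filter (11.6%) or with DESeq2 (11.5%), and 2 to 7 of 28 or 29 with 1 library left out (9.12 to 17.9%). The added gene in the 2 settings with 4 was Hoxc4, which rests on 17 and 38 counts in 2 libraries. Of 263 fold changes refitted under the other settings (the one without 5-Fu+BBR libraries 2 and 3 included), 251 kept their direction, as did 151 of 168 with 1 library left out. The groups did not overlap for 6 Hox genes in CPM and 4 in FPKM. By mean FPKM of at least 0.1 in place of 1, 27 Hox genes were detected, not 17; with 1 library left out it was 16 or 17. By CPM per kilobase of the longest GENCODE M21 transcript, Hoxa9 took the place of Hoxa7 among the 3 highest HoxA genes, so 2 were shared.

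Of all genes tested, 15 passed as reported, 113 with the replicate block, 77 with no filter, 1119 with DESeq2, 9 with limma-trend on log2(FPKM + 0.1), 0 to 159 with 1 library left out, and 0 without 5-Fu+BBR libraries 2 and 3, an alternative chosen after seeing the data. Same-numbered libraries of the groups share only a number in the labels. Their deviations from the group means correlated at 0.06, 0.02 and 0.12 over genes. 5-Fu libraries 1 and 3 correlated best with the 5-Fu+BBR library of the same number, and 5-Fu library 2 with 5-Fu+BBR library 1 (0.10). The labels state no pairing, so the block is not known to pair samples. The order of levels by transcript lengths from the deposited table was not run, since the table used here gives none. Genes at a few fragments, all of HoxC among them, are limited by depth.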
